A study of Mus musculus with 35 samples.

Results

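Vegfa, the main growth factor of blood vessels, was followed together with Cldn5 and Egfl7, a pair of genes of the cells that line vessels, in neuroblastomas of TH-MYCN mice and in the ganglia from which such tumors arise. The members were taken by symbol from the named probes of a single-colour oligonucleotide array: 3 genes of the 7804 named, held by 4 of the 8354 probes with a single symbol. Vegfa had the probes 621252 and 620740, Cldn5 the probe 365443 and Egfl7 the probe 853583. All animals were homozygous for TH-MYCN, a transgene that drives MYCN from the tyrosine hydroxylase promoter in sympathetic cells, so no group lacked the transgene. Set 1 held 24 tumors in 4 size classes of 6, harvested at a life span of 28 to 46 days: small (0.05 to 0.1 g), medium (0.24 to 0.46 g), large (0.76 to 1.3 g) and very large (1.6 to 3.0 g). The mean life span ran with size class, at 31.3, 37.2, 39.3 and 40.2 days from small to very large. Set 2 held 9 sympathetic ganglia with neuroblast hyperplasia, 5 of them collected on the day of birth (day 0), 2 a week later (day 7) and 2 at day 14, and it added second arrays of small replicates 3 and 6 of set 1. The median intensity of an array lay between 558 and 1292 for set 1 and between 656 and 1514 for set 2, and the number of arrays limits the precision of every value. All 7 markers of sympathetic neuroblasts were measured and all 9 of the 12 endothelial markers that had a named probe (Pecam1, Tie1 and Tek had none here), and none of either list was at the floor in every array of a group.

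VEGF-A is secreted by tissue cells, and its gene is a classic target of the hypoxia-inducible factors, which are stabilised when oxygen falls. It binds the receptor tyrosine kinases VEGFR2, encoded by Kdr, and VEGFR1, encoded by Flt1, on endothelial cells and drives their division, sprouting and permeability. Claudin 5, the product of Cldn5, seals the tight junctions between endothelial cells and is the dominant claudin of the blood-brain barrier. EGFL7 is an extracellular matrix protein secreted by endothelial cells that takes part in the shaping of vessel tubes. Levels of Cldn5 and Egfl7 in a piece of tissue therefore serve as a readout of its vessels, while in bulk RNA fewer endothelial cells and less RNA per cell cannot be told apart.

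The stretches of 250 bases before the transcription start are a part of the regions through which the growth factor and the vessel genes can be controlled. Sites farther away were not searched. They are RefSeq sequences of GRCm38.p6, shown for the most upstream of 2 listed starts of Vegfa, for the only start of Cldn5 and for the most upstream of 3 starts of Egfl7. Capitals mark GGAA or its reverse complement TTCC, the core bound by ETS factors, which drive many endothelial genes, and would also mark ACGTG and the related core GCGTG on either strand, to which hypoxia-inducible factors bind.
Vegfa, chr17:46032378-46032627, minus strand: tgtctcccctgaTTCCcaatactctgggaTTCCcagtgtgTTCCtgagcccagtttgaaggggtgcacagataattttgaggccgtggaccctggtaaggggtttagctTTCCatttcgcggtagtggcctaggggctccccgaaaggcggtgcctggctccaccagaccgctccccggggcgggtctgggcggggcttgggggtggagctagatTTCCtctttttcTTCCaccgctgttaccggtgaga
Cldn5, chr16:18776597-18776846, plus strand: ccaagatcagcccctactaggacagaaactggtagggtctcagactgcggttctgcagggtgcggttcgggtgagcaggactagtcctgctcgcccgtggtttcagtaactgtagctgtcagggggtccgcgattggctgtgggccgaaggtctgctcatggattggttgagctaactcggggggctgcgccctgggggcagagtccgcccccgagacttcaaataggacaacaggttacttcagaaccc
Egfl7, chr2:26580833-26581082, plus strand: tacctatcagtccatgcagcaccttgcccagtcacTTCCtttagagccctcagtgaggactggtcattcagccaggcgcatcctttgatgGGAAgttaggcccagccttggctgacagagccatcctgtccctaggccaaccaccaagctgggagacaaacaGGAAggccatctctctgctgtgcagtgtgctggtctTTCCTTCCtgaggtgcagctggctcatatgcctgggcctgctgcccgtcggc
The Vegfa window held 6 GGAA or TTCC matches, the Egfl7 window 5 and the Cldn5 window 0, with each motif counted on both strands. Of 32851 promoter windows of the same length, 93.4% held at least 1 such match, with a median of 3. Neither ACGTG nor GCGTG, nor a reverse complement, occurred in these 3 windows, and 16.6% and 28.2% of all windows held them. The window of the other start of Vegfa held 2 GGAA or TTCC matches, 1 of ACGTG and 1 of GCGTG on either strand. That window (chr17:46025164-46025413) lies downstream of the first start, so these letters are not upstream of the gene as a whole. The other starts of Egfl7 held 3 and 1 GGAA or TTCC matches and 0 of the others. The matches are descriptions of these letters.

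The first question was whether Vegfa and the vessel genes changed with tumor size. Vegfa probe 621252, the brighter of its probes in set 1, ran from 11.53 over a median of 12.29 to 13.27 log2 intensity in the 6 small tumors and from 12.25 over 12.57 to 13.28 in the 6 medium ones. It ran from 12.58 over 12.88 to 13.45 in the large and from 12.69 over 12.91 to 13.62 in the very large tumors. The class means therefore stood in the order of weight, 12.35 ± 0.65 (SD, n = 6), 12.66 ± 0.38, 12.95 ± 0.32 and 13.00 ± 0.34, while all classes overlapped and the small tumors spread most. Very large tumors were 0.64 above small ones on the log2 scale (SE 0.24, 95% CI 0.15 to 1.13, limma adjusted p = 0.13), a difference that did not pass the test. Per 10-fold weight the level was 0.45 higher (SE 0.15, adjusted p = 0.086). Without small replicate 1, which had the highest value of its class (13.27), these became 0.82 (adjusted p = 0.0273) and 0.61 (adjusted p = 0.0116), and both then passed. It was the only 1 of 12 and of 24 tumors whose omission gave a pass, and the limma adjusted p ran up to 0.312 and 0.197.

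The other Vegfa probe, 620740, lay at 11.15 ± 0.43, 11.20 ± 0.56, 11.56 ± 0.60 and 11.51 ± 0.53 (SD, n = 6) from small to very large tumors. Its difference between very large and small tumors was 0.35 (SE 0.30, adjusted p = 0.601) and its weight trend 0.33 (SE 0.19, adjusted p = 0.366). Over the 24 tumors both probes were related, with r = 0.579 (permutation p = 0.00296) and rho = 0.593 (permutation p = 0.00282), and r = 0.604 without the 2 tumors farthest from the median. In the 11 arrays of set 2 the r between them was 0.131. Vegfa stands for probe 621252 in the comparisons of set 1 below unless the other probe is named. On second arrays of small replicates 3 and 6, its unnormalized intensity was 0.44 and 0.11 of that on the first. For probe 620740 these ratios were 1.60 and 0.98, and for the median over all probes 1.23 and 1.17. The level of probe 621252 was thus not repeated in these tumors, which limits every result of set 1 read from it.

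Cldn5 followed no order of weight. It ran from 11.92 over a median of 14.26 to 14.78 log2 intensity in small, from 11.56 over 12.53 to 13.80 in medium, from 12.35 over 12.92 to 13.45 in large and from 12.63 over 14.03 to 14.42 in very large tumors. The means, 13.82 ± 1.05, 12.72 ± 0.88, 12.98 ± 0.38 and 13.86 ± 0.63 (SD, n = 6), were highest in the lightest and the heaviest class, and all classes overlapped. Medium tumors were 1.10 below small ones on the log2 scale (log2 change -1.10, SE 0.39, 95% CI -1.90 to -0.29, adjusted p = 0.222), and very large tumors were 1.14 above medium ones (SE 0.39, 95% CI 0.33 to 1.94, adjusted p = 0.752). Neither passed the test. Without small replicate 5, the lowest of its class, the first became -1.48 (adjusted p = 0.0287). It passed in this 1 of 12 omissions only, and the limma adjusted p ran up to 0.485. In the order very large, small, large and medium, no neighbours differed past the threshold. The slope on weight was -0.10 per 10-fold (SE 0.30, adjusted p = 0.908) over 24 tumors and 1.42 (adjusted p = 0.685) among the 18 above the small class, a change of direction.

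Egfl7 did not pass between any classes. It ran from 12.31 over a median of 12.44 to 13.52 in small, from 12.06 over 12.34 to 12.57 in medium, from 12.29 over 12.48 to 13.54 in large and from 12.46 over 12.85 to 13.13 log2 intensity in very large tumors. The means were 12.59 ± 0.46, 12.33 ± 0.20, 12.63 ± 0.47 and 12.79 ± 0.26 (SD, n = 6). Very large tumors were 0.19 above small ones (SE 0.21, 95% CI -0.23 to 0.62, adjusted p = 0.696) and the weight trend was 0.10 (SE 0.14, adjusted p = 0.765), with no pair of classes apart and a trend that turned to -0.06 with arrays centred on their medians. The levels by weight are plotted for all 4 probes.

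**Figure D1:**
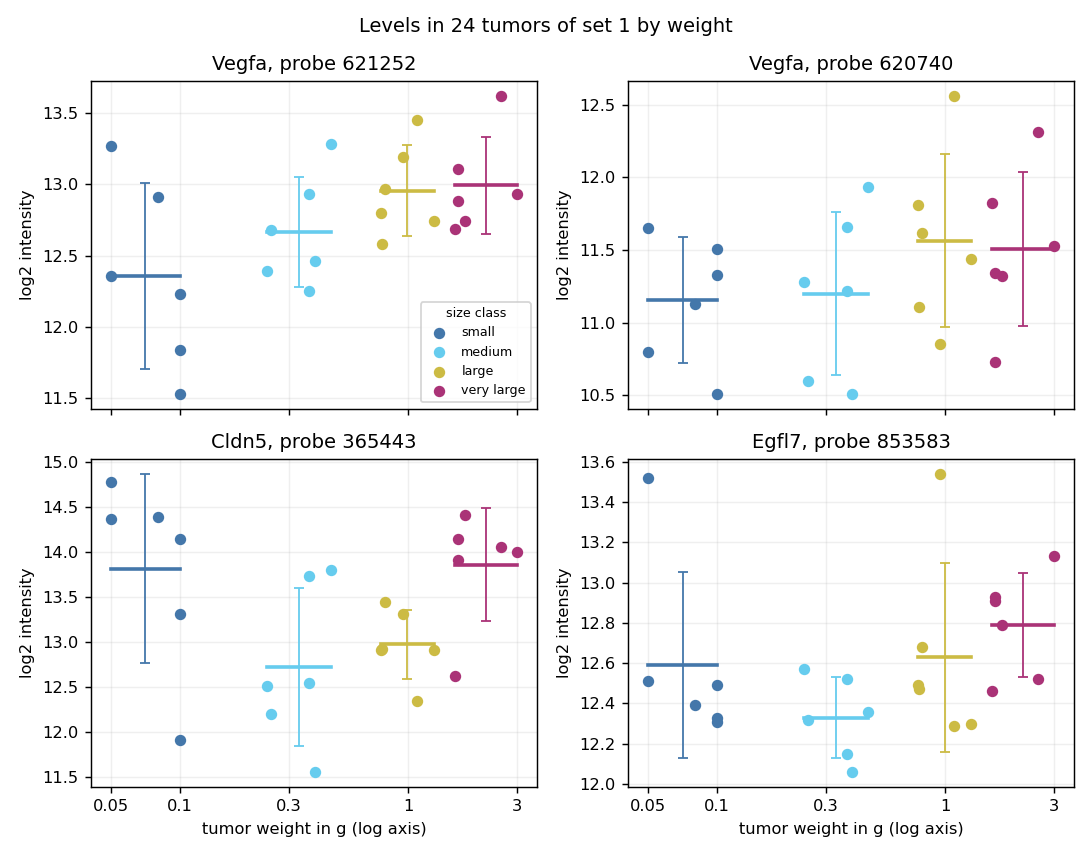
Log2 intensity (vertical axis) against tumor weight in g (horizontal log axis) in the 24 tumors of set 1, 1 panel per probe, points coloured by size class, with horizontal lines for class means and bars for the SD (n = 6 each). The class means of Vegfa probe 621252 climb from 12.35 to 13.00, those of Cldn5 are lowest in the medium class at 12.72, and every pair of classes overlaps in every panel.

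None of the 4 probes passed in any comparison of size classes, in the weight trend or in limma's F test over the 4 classes. Of all 32996 probes, 0.961% passed in medium, 2.31% in large and 4.69% in very large against small tumors, and 5.59% passed in the weight trend and 2.25% in the F test. By direction, 0.949% rose and 1.36% fell in large tumors, 2.25% rose and 2.45% fell in very large tumors, and 2.62% rose and 2.96% fell with weight. Between neighbouring classes above the small one limma called 0 probes, as between very large and medium tumors, where 1857 probes had an unadjusted p under 0.05. The change of Cldn5 between very large and small tumors was smaller than that of Vegfa probe 621252 by 0.60 (difference of changes -0.60, two-sided exact permutation p = 0.143 over 924 arrangements), and that of Egfl7 by 0.45 (difference -0.45, exact permutation p = 0.128). Neither difference passed, and the smallest p that 6 against 6 tumors allow is 0.00216.

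Other tissue moved with size class. In very large against small tumors, 5 of 8 measured skeletal muscle markers fell (median log2 change -4.38) and 3 of 8 adipocyte markers fell (median -1.54), against a median of 0.03 over all probes. In units of 1000 of intensity, the summed muscle markers ran from 28.1 to 4060 in small and from 13.3 to 1105 in very large tumors, and the adipocyte sum from 183 to 2555 and from 166 to 435. Of 6 platelet and blood markers 3 rose, Hba-a1, Hbb-y and Alas2, with a sum of 128 to 820 in small and 451 to 2223 in very large tumors. With the muscle and adipocyte levels in the model, medium against small tumors gave 0.13 for Cldn5 (adjusted p = 0.994) and its weight trend became 1.15 (adjusted p = 0.239). Over the 24 tumors Cldn5 had r = 0.548 with the adipocyte level (permutation p = 0.00591, adjusted over 8 relations 0.0473, rho = 0.485, adjusted p = 0.143), and r = 0.412 without the 2 tumors farthest from the median. After subtraction of class means r was 0.579 (permutation adjusted p = 0.147) and 0.242 without 2 tumors. Vegfa probe 621252 had r = -0.251 and Egfl7 0.024 with the adipocyte level (permutation adjusted p = 0.474 and 0.912). The part of these tissues in the size results beyond these values was not tested.

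The next question was whether vessel signal followed Vegfa from tumor to tumor. Within size classes Cldn5 was higher where Vegfa probe 621252 was higher: after subtraction of class means r was 0.586 over 24 tumors (permutation within classes, p = 0.013, adjusted over 3 relations 0.039) and rho was 0.602 (permutation adjusted p = 0.01). Without small replicates 1 and 5, the farthest from the median of Vegfa, r was 0.448. With the other Vegfa probe r was 0.236 (permutation adjusted p = 0.405), so the relation rests on the probe. Without subtraction of class means r was 0.354 (permutation adjusted p = 0.0906) and rho 0.309 (permutation adjusted p = 0.141).

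Egfl7 and Vegfa probe 621252 had r = 0.411 (permutation adjusted p = 0.0701) and rho = 0.440 (permutation adjusted p = 0.0484) over the 24 tumors. After subtraction of class means these were 0.400 (permutation adjusted p = 0.0962) and 0.330 (permutation adjusted p = 0.126), r fell to 0.107 without small replicates 1 and 5, and it was -0.109 with the other Vegfa probe. The vessel genes themselves, Cldn5 and Egfl7, had r = 0.497 (permutation adjusted p = 0.0369) and rho = 0.582 (permutation adjusted p = 0.0103), with r = 0.400 without 2 tumors. Their values with class means subtracted were r = 0.415 (permutation adjusted p = 0.0962), rho = 0.536 (permutation adjusted p = 0.01) and r = 0.331 without 2 tumors.

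**Figure D2:**
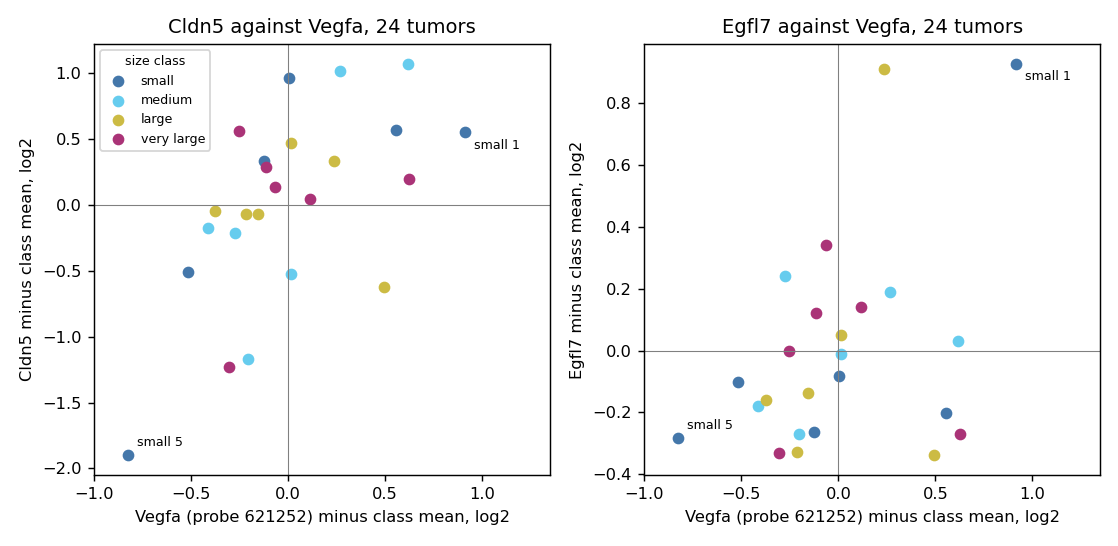
Log2 level of Cldn5 (left) and Egfl7 (right) against that of Vegfa probe 621252, each minus the mean of its size class, for the 24 tumors of set 1 coloured by class, with small replicates 1 and 5 marked. Over all classes together Cldn5 climbs with Vegfa (r = 0.586, 0.448 without the marked tumors), but not in the large class (r = -0.300). The slope of Egfl7 rests on the marked tumors (r = 0.400 and 0.107).

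Inside single classes the sign differed. Cldn5 and Vegfa probe 621252 had r = 0.764 in the 6 small tumors (exact permutation p = 0.0611), 0.765 in the medium (p = 0.0806), -0.300 in the large (p = 0.582) and 0.305 in the very large ones (p = 0.475). Egfl7 and Vegfa had r = 0.705, 0.340, 0.265 and -0.194 in the same order. Of the 12 relations of this family none had an exact permutation p adjusted over them below 0.322.

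The same question was asked of every probe with the level of Vegfa probe 621252 in the model beside size class. The slope of Cldn5 was 1.03 log2 units per log2 unit of Vegfa (SE 0.29, 95% CI 0.44 to 1.62, adjusted p = 0.104) and that of Egfl7 was 0.33 (SE 0.17, 95% CI -0.02 to 0.69, adjusted p = 0.474). Neither passed over all 32995 probes tested, of which 87 or 0.264% did, 34 with a positive and 53 with a negative slope. Without large replicate 6 the slope of Cldn5 was 1.22 (adjusted p = 0.0415), the only 1 of 24 omissions in which it passed. The limma adjusted p ran up to 0.357 in the others. Of the 18 measured genes of the endothelial surface, junction and secreted list (37 genes), 13 had a slope above 0 and 1 rose with Vegfa: S1pr1, the sphingosine 1-phosphate receptor of endothelium (0.99, adjusted p = 0.0303). The median slope of the list was 0.41, against 0.00 over all probes. The receptors Flt1 (0.52, SE 0.15, adjusted p = 0.113) and Kdr (0.48, SE 0.18, adjusted p = 0.255) did not pass. Of the 17 measured hypoxia targets, 9 had a slope above 0 (median 0.13) and 1 rose, the hexokinase gene Hk2 (0.66, adjusted p = 0.0339). The calls of S1pr1 and Hk2 are lost with arrays centred on their medians, with the other Vegfa probe in the model, and without small replicate 1 or 5, medium replicate 3 or 4 or very large replicate 1, and that of Hk2 also without small replicate 3 or medium replicate 5.

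The named genes most like each member were found by Pearson's r over the same 24 tumors, which share the array and its scaling. Vegfa probe 621252 was most like Sema6b (r = 0.831), a semaphorin, Rcor1 (0.802) and Epb41l4a (0.801), then Ubxn2a (0.792) and 2310011J03Rik (0.790). It was most opposed to Tnks (-0.841), Abca8a (-0.840) and Kcna5 (-0.822). In the 11 arrays of set 2 the r with Vegfa was -0.198 for Sema6b, -0.101 for Rcor1, -0.131 for Epb41l4a, -0.184 for Ubxn2a and 0.505 for 2310011J03Rik, and 0.086, 0.024 and 0.493 for the 3 opposed genes. Both Vegfa probes ranked low among the probes of the authors' table of set 2 and had r = 0.131 with each other there, which limits these values. Among 7424 genes ranked by r with Vegfa, Robo4, a receptor of endothelial cells, came at place 29 (0.734), Plvap, of endothelial fenestrae, at 80 (0.684) and Emcn, endomucin, at 112 (0.667), ahead of Egfl7 at 1118 and Cldn5 at 1427. Other genes of the endothelial list lay far down, with Nos3 at 4311 (-0.109), Mcam at 5846 (-0.343), Palmd at 6141 (-0.401) and Thbd at 6270 (-0.427).

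Cldn5 was most like Aoc3 (r = 0.813), an amine oxidase of adipocytes, smooth muscle and endothelium, Mgll (0.801), a lipase that is abundant in adipocytes, Ptprb (0.796), the endothelial phosphatase VE-PTP, S1pr1 (0.780) and Ppp2r5a (0.756). Its opposed genes were Pif1 (-0.721), Ankrd13b (-0.685) and Evl (-0.659). In the 11 arrays of set 2 the r with Cldn5 was 0.778 for Ptprb, 0.372 for Aoc3, 0.263 for Mgll, -0.183 for S1pr1 and -0.326 for Ppp2r5a, and 0.241, 0.554 and -0.363 for the opposed genes. Egfl7 was most like Cnn2 (0.851), Eva1b (0.808), Notch3 (0.802), the Notch receptor of mural cells, AU040576 (0.795) and Tmem179b (0.788), and most opposed to MGC58341 (-0.835), Lrp11 (-0.795) and Cadm1 (-0.787). In set 2 the r with Egfl7 was 0.820 for Cnn2, 0.458 for Eva1b, -0.414 for Notch3, 0.430 for AU040576 and 0.303 for Tmem179b, and 0.681, 0.177 and 0.605 for the opposed genes.

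Other genes of the VEGF pathway and of vessels were compared between very large and small tumors, where 4.69% of all probes passed. Of 4 measured VEGF ligand genes and 2 receptor genes none passed in very large against small tumors: Vegfb stood at 0.05, Vegfc at -0.81 (SE 0.38, adjusted p = 0.262), Pgf at 0.40, Kdr at 0.33 and Flt1 at 0.05 on the log2 scale. Of the 18 endothelial genes, 12 were above 0, 0 rose and 2 fell, with a list median of 0.12, which became -0.04 with centred arrays. The genes that fell were Palmd (-1.67, adjusted p = 0.00602) and Thbd (-1.03, adjusted p = 0.042), which encodes thrombomodulin, an anticoagulant receptor. Both calls are lost with muscle and adipocyte levels in the model. They are also lost with life span in the model, at -1.64 for Palmd (limma adjusted p = 0.095) and -1.29 for Thbd (adjusted p = 0.113). None of the 6 endothelial transcription factors passed here, and 1 rose with weight, Gata2 (0.93 per 10-fold, adjusted p = 0.0316), lost with centred arrays or with life span in the model.

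Of 7 measured genes of the vessel basement membrane 2 rose, the laminin chains Lama4 (0.98, adjusted p = 0.00718) and Lamb1 (0.47, adjusted p = 0.0409), with a list median of 0.25. Of 6 genes of the HIF pathway 2 fell, Hif1a, the oxygen-regulated subunit (-0.53, adjusted p = 0.0423), and Egln3, a prolyl hydroxylase that marks it for degradation (-2.78, adjusted p = 0.034), with a median of -0.20. The calls of Lama4, Lamb1 and Hif1a are lost with centred arrays, and all 4 calls with muscle and adipocyte levels or with life span in the model. With 1 of the 12 tumors left out, the call was lost in 8 cases for Thbd, 9 for Lamb1, 10 for Hif1a, 8 for Egln3 and 0 for Palmd and Lama4. None of 6 mural cell genes (median 0.03), 4 Notch genes (0.14), 4 inhibitors of vessel growth (-0.31) or 17 hypoxia targets (0.01) passed between very large and small tumors. The inhibitor Serpinf1 fell in large against small tumors (-1.36, adjusted p = 0.0206) and with weight (-0.82, adjusted p = 0.0247). The mural gene Des fell in both as well (-2.75, adjusted p = 0.0453, and -1.71, adjusted p = 0.0484). Lama4 (0.64, adjusted p = 0.00621) and Col4a1 (0.41, adjusted p = 0.0378) rose with weight. Of the hypoxia targets 1 fell in large tumors.

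In the ganglia of set 2 the vessel genes were higher at day 14 than at day 0, while the difference of Vegfa, read from probes with lower levels there, did not pass. Set 2 levels are the authors' normalized values, on another scale than set 1. Cldn5 lay at 14.56, 13.54, 13.85, 13.62 and 12.17 log2 intensity in the 5 ganglia of day 0, at 14.69 and 14.42 at day 7, and at 15.43 and 15.40 at day 14. Both day 14 ganglia were above every younger ganglion, and day 7 overlapped day 0. Here and below, the share of all probes whose groups of this size lie fully apart is not given, so separation is description only. Cldn5 was 1.87 higher at day 14 than at day 0 on the log2 scale (SE 0.46, 95% CI 0.87 to 2.87, adjusted p = 0.025), 3.65-fold. Without either day 14 ganglion the value stayed near that size (1.85 and 1.89) and did not pass (adjusted p = 0.156 and 0.213). In the same comparison 2 of 8 adipocyte markers rose, Cfd (2.50, adjusted p = 0.023) and Pnpla2 (1.12, adjusted p = 0.00412), with a list median of 1.16, and their sum in units of 1000 ran from 303 to 686 at day 0 and from 798 to 1191 at day 14. With muscle and adipocyte levels in the model Cldn5 was 1.21 higher (adjusted p = 0.658).

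Egfl7 lay at 14.95, 14.63, 14.20, 14.09 and 13.95 at day 0, at 15.13 and 15.36 at day 7 and at 15.14 and 15.47 at day 14. Every ganglion of day 7 and of day 14 was above all 5 of day 0, a description without the share over all probes. The rise from day 0 to day 14 was 0.94 (SE 0.27, 95% CI 0.35 to 1.53, adjusted p = 0.0478), and the difference between day 7 and day 0 was 0.88 (SE 0.27, 95% CI 0.29 to 1.47, adjusted p = 0.119), which did not pass. Day 0 specimens carry names of 2 kinds, replicates 1 and 2 against replicates 3 to 5, and the first pair was the highest for Egfl7. Against that pair alone, a comparison chosen after seeing the data, the change to day 14 was 0.51 (adjusted p = 0.16), and the call was also lost without day 0 replicate 3, 4 or 5 or either day 14 ganglion (0.77 to 1.10).

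Vegfa probe 620740, the brighter one in set 2, lay at 12.48, 11.75, 11.54, 12.28 and 11.99 at day 0, at 13.60 and 12.36 at day 7 and at 12.77 and 11.85 at day 14. The groups overlapped, and the highest value belonged to day 7 replicate 1. Day 7 was 0.97 above day 0 (SE 0.41, adjusted p = 0.226) and day 14 was 0.30 above it (SE 0.41, 95% CI -0.60 to 1.19, adjusted p = 0.695). Probe 621252 had means of 10.83, 10.92 and 11.11 at days 0, 7 and 14 (adjusted p = 0.937 and 0.782 against day 0), with 1 of the 5 day 0 arrays at the floor of the values, so that its changes from day 0 are bounds there. Its mean percentile among the 12688 probes of the authors' table was 6.1, 5.9 and 7.1 at these days. That of probe 620740 was 18.2, 32.3 and 22.8. Cldn5 stood at 40.5, 54.8 and 65.6 and Egfl7 at 52.2, 63.6 and 64.3. Over all unnormalized probes of set 2, probe 620740 stood at percentile 67.7 in small replicate 3 and 62.8 in small replicate 6. On the arrays of set 1 the same tumors gave 64.6 and 62.9. Probe 621252 stood at 59.3 and 46.1 in set 2 and at 71.5 and 76.3 in set 1. The SE of the change from day 0 to day 14 was 0.41 for probe 620740 and 0.52 for probe 621252. For Cldn5 it was 0.46 and for Egfl7 0.27, so the lower rank of probe 620740 did not come with a larger SE than that of Cldn5. Of all 12688 probes, 1.99% passed between day 7 and day 0, 10.2% between day 14 and day 0 and 0.465% between day 14 and day 7, and of the 4 member probes 0, 2 and 0 did. At day 14, 5.56% of all probes rose and 4.63% fell. Over the 11 arrays of set 2, groups pooled, Vegfa probe 620740 had r = 0.387 with Cldn5 and 0.409 with Egfl7. Cldn5 and Egfl7 had r = 0.645 with each other. These values were not tested.

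**Figure D3:**
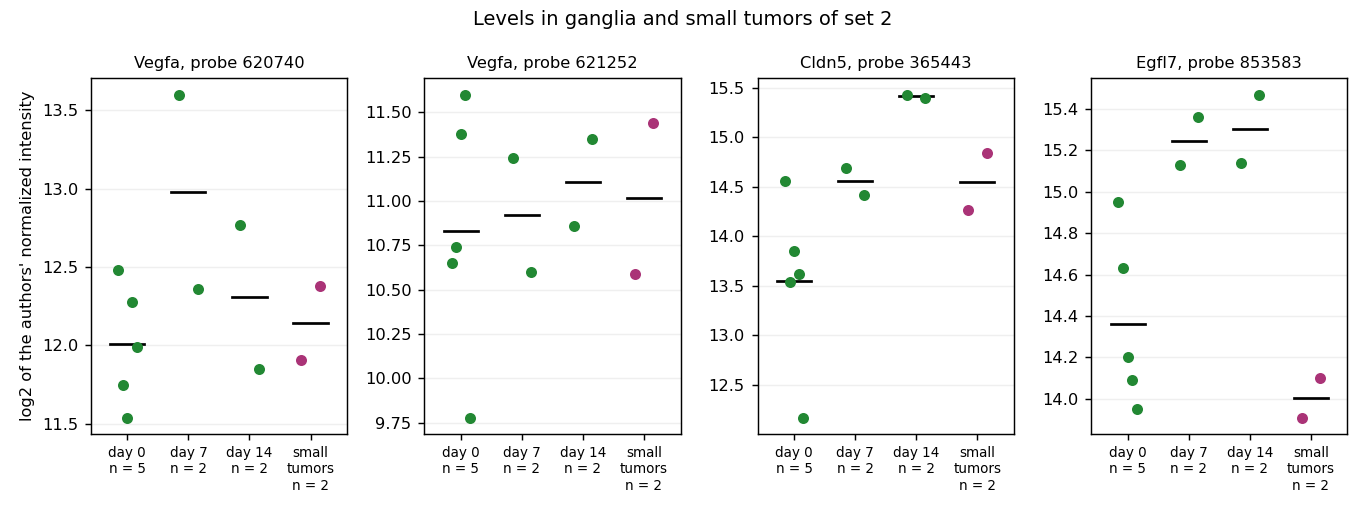
Log2 of the authors' normalized intensity (vertical axis) in each array of set 2, 1 panel per probe, for ganglia of day 0, day 7 and day 14 (green) and small tumors (purple), with a line at each group mean. Both day 14 ganglia (15.40 and 15.43) exceed all others for Cldn5, the small tumors (13.91 and 14.10) lie below all day 7 and day 14 ganglia for Egfl7, and the groups overlap for both Vegfa probes.

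The 2 small tumors arrayed with the ganglia had Egfl7 at 13.91 and 14.10, below every ganglion of day 7 and day 14. Egfl7 was lower by 1.24 than at day 7 (log2 change -1.24, SE 0.33, adjusted p = 0.0118) and by 1.30 than at day 14 (log2 change -1.30, SE 0.33, 95% CI -2.0 to -0.59, adjusted p = 0.0071). Against day 0 the change was -0.36 (SE 0.27, adjusted p = 0.335). Both calls were lost without the array of small replicate 6 (adjusted p = 0.0828 and 0.0565), that against day 7 without day 7 replicate 2 (adjusted p = 0.0759) and that against day 14 without day 14 replicate 2 (adjusted p = 0.0662). Cldn5 stood at 14.26 and 14.84 in these tumors, the first within the range of the day 0 ganglia and below both of day 7, the second above every ganglion of day 0 and day 7, and both below the day 14 ganglia (log2 change -0.87, SE 0.55, 95% CI -2.07 to 0.33, adjusted p = 0.239). Vegfa probe 620740 stood at 11.91 and 12.38, inside the range of day 0 (0.14, SE 0.41, adjusted p = 0.831).

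These comparisons set tumors against ganglia, where 37.3%, 32.2% and 39.7% of all probes passed against day 0, day 7 and day 14, so that a single call is common. By direction, 18.4% rose and 18.9% fell against day 0, 15.4% and 16.9% against day 7, and 19.9% and 19.9% against day 14. limma's F test over the 4 groups passed for Cldn5 (adjusted p = 0.0253) and Egfl7 (0.00863), not for Vegfa probe 620740 (0.266) or 621252 (0.961), and for 41.9% of all probes. In the same units of 1000, the summed adipocyte markers ran from 4602 to 5376 in the small tumors and from 303 to 1191 over all ganglia, and the muscle sum from 3646 to 3835 and from 888 to 1540. The fibroblast sum ran from 3348 to 3398 in the tumors and from 5838 to 8696 over the ganglia. The macrophage sum ran from 1328 to 1364 in the tumors and from 103 to 285 over the ganglia, and the neuroblast sum from 2483 to 2611 and from 4611 to 7065. The tumor group and these tissue levels cannot be told apart with 2 tumors.

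The other vessel genes were compared between the ganglia of day 0 and day 14, where 10.2% of all probes passed. Of the 18 endothelial genes 14 were above 0, 2 rose, Cldn5 and Egfl7 themselves, and 1 fell, Thbd (-1.38, adjusted p = 0.0239), 3 in all, with a list median of 0.64 against -0.01 over all probes. Neither receptor passed (Flt1 0.39, Kdr 0.06), nor did any of the 4 ligands (Vegfc 0.77, Pgf 0.74). In the basement membrane list only Sparc passed (0.81, adjusted p = 0.00849), a matrix protein that binds collagen. Serpinf1, which encodes the vessel inhibitor PEDF, rose (1.40, adjusted p = 0.0225), while Hif1an, the asparagine hydroxylase that restrains HIF, fell by 1.61 (adjusted p = 0.0338). Of the hypoxia targets Mif fell by 0.52 (adjusted p = 0.0391), and its second probe did not pass (-0.28, adjusted p = 0.273). The calls of Thbd, Sparc, Hif1an and Mif are lost without either day 14 ganglion, and that of Serpinf1 without day 14 replicate 2 (0.88, adjusted p = 0.36). Without day 0 replicate 3 those of Thbd, Hif1an and Mif are lost, without replicate 4 those of Hif1an and Mif, and without replicate 2 or 5 that of Mif. From the series table the calls of Thbd, Hif1an and Mif are lost whether it is quantile normalized, centred or not normalized. That of Sparc is lost with centred arrays and without normalization. The calls of Thbd, Sparc, Hif1an, Mif and Serpinf1 are all lost with muscle and adipocyte levels in the model.

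**Figure D4:**
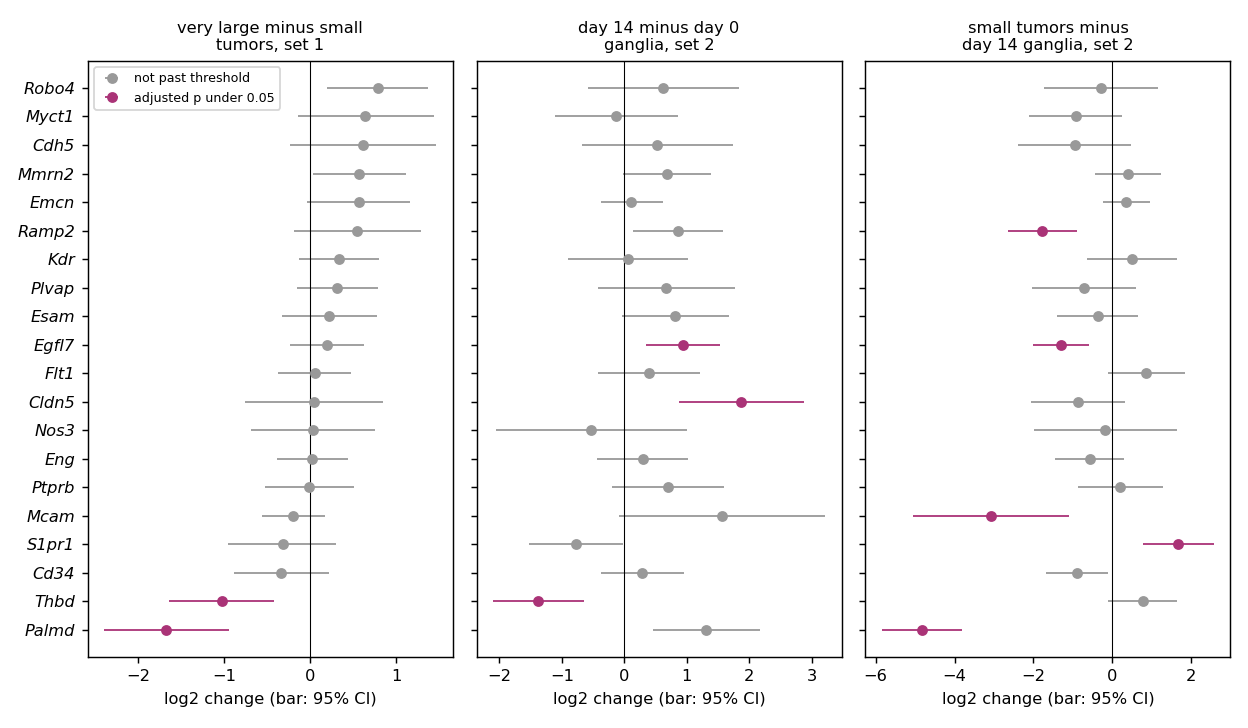
Log2 change with its 95% confidence interval (horizontal axis) for 18 endothelial genes and the VEGF receptors Kdr and Flt1, for very large against small tumors, day 14 against day 0 ganglia and small tumors against day 14 ganglia, with purple for an adjusted p under 0.05. Palmd (-1.67) and Thbd (-1.03) fell in the first panel, Cldn5 (1.87) and Egfl7 (0.94) rose and Thbd (-1.38) fell in the second, and 5 genes passed in the third.

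Against day 14 ganglia, where 19.9% of all probes were lower and 39.7% passed either way, the small tumors were lower for 4 of the 18 endothelial genes, Palmd (-4.82, adjusted p = 8.65e-06), Ramp2, a subunit of the adrenomedullin receptor (-1.77, adjusted p = 0.00375), Egfl7 and Mcam (-3.08, adjusted p = 0.0173). They were higher for S1pr1 (1.68, adjusted p = 0.00603), and the list median was -0.65 against 0.06 over all probes. Flt1 rose against day 0 (1.26, adjusted p = 0.0185) and day 7 (1.51, adjusted p = 0.0221), with 0.87 against day 14 (adjusted p = 0.147), and Kdr passed against no stage (0.56, 0.10 and 0.50). Both Flt1 calls are lost without either small tumor, and that against day 7 also without either day 7 ganglion. Of the 7 basement membrane genes 5 fell against day 14, Nid2, which encodes nidogen 2 (-3.19), Lamb1 (-1.93), Sparc (-1.52), Lamc1 (-1.44) and Col4a1 (-1.28), and 1 rose, Col4a2 (1.06, adjusted p = 0.0208), the other chain of the same collagen.

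Among the mural cell genes Tagln (2.11), Myh11 (2.32) and Notch3 (1.09) rose and Cspg4 (-1.40) and Des (-2.45) fell in the same comparison, 5 of 6, beside 39.7% of all probes. Of the Notch genes Hey2 (-3.42), Hey1 (-1.35) and Notch4 (-0.56) fell, 3 of 4, and of 6 endothelial transcription factors Gata2 fell (-2.59). Serpinf1 was the only 1 of 4 vessel inhibitors to pass (-4.25, adjusted p = 6.48e-06). Of 6 HIF pathway genes 3 rose, Hif1an (2.96), Egln1 (1.5) and Hif1a (0.86). Of 17 hypoxia targets 2 rose, Hk2 (2.94) and Mif (1.03), and 6 fell, led by Hk1 (-3.32). Against day 14 the calls of Myh11, Notch4 and Col4a1 are lost without any 1 of the 4 arrays. Those of Hey1, Notch3, Mcam, Hif1a and Col4a2 are lost without day 14 replicate 2. Without day 14 replicate 1 those of Mcam, Hif1a and Col4a2 are lost, without small replicate 6 those of Hey1, Notch3 and Mcam, and without small replicate 3 those of Hey1, Hif1a and Col4a2. From the series table the calls of Egln1, Mif, Sparc and S1pr1 are lost both with centred arrays and without normalization. So are those of Hey1, Notch3, Notch4, Myh11, Hif1a, Col4a1 and Col4a2. Those of Ramp2, Cspg4 and Lamc1 are lost without normalization.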

How the data were processed

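Digoxigenin-labelled cDNA from total RNA of 10 µm frozen sections was hybridised to single-colour arrays, per the labels' protocols. The deposited series table holds array intensity for 33012 probes and 35 arrays with no normalization between arrays. The authors' table of set 2 holds quantile-normalized intensity for 12688 probes, per the deposited readme. No source used here names the image analysis.

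Set 1 was quantile normalized here, after 16 probes with a missing value were left out. A floor at the 1st percentile of each set (168.1052 and 878.91 intensity units) replaced lower values before log2. Models were fitted over all probes with limma 3.58.1 in R 4.3.3 (lmFit, eBayes with an intensity trend). P values were adjusted by Benjamini-Hochberg over all probes of a comparison, and an adjusted p under 0.05 passed. Correlations used 100000 permutations, exact ones within classes (numpy 2.4.6, scipy 1.17.1). The scripts were tested on simulated data. Nothing in the labels says whether arrays of a group came from separate litters, so p-values measure the spread between these samples.

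Symbols came from the authors' table, updated through RefSeq (GRCm38.p6). Of several probes of a gene the brightest in the set stood for it. Genes were named by a rule: every member probe, up to 4 genes of each list by smallest p in very large against small tumors and in small tumors against day 0, VEGF ligands and receptors past the threshold, and the 5 genes most and 3 least like each member. Which of their values in other comparisons to print was chosen after the values were seen. The members, lists, tests and alternatives were chosen with earlier results of these data known. No angiopoietin or Tie gene (0 of 4) was measured.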

Additional observations from a re-analysis of the deposited data

Results flagged for a closer look

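Of 20 groups of 4 to 10 tumors or ganglia examined over the 4 probes, 3 held a value past Dixon's critical value for its group size, which is set to be passed by chance in about 1 in 20 groups. Cldn5 stood at 12.63 log2 intensity in very large replicate 1, below the other 5 very large tumors (gap 0.718 of the group's range). Egfl7 stood at 13.52 in small replicate 1, which also had the highest Vegfa of its class (gap 0.834). Egfl7 stood at 13.54 in large replicate 4, above the other large tumors (gap 0.691).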

How the results depend on the processing

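The labels link only the 2 small tumors arrayed in both sets and pair no other samples across groups, so no paired analysis of the groups was made. All changes are on the log2 scale, the cause of each change of call or direction was not tested, and 2 to 6 arrays per group limit the precision. With muscle and adipocyte levels in the model, Cldn5 turned to 0.13 (medium against small), 0.56 (large against small), 1.15 (weight trend), -0.12 (day 7 against day 0) and -4.00 (small tumor against day 0), and was 1.21 at day 14 against day 0 without passing. Vegfa probe 621252 turned to -0.59 (day 7 against day 0), -0.63 (day 14 against day 0), -0.03 (day 14 against day 7) and 1.61 (tumor against day 14), and probe 620740 to 0.09 and 0.84 (tumor against day 7 and day 14). Egfl7 lost its calls at 0.66 (day 14 against day 0), -4.41 and -4.86 (tumor against day 7 and day 14). In that model the tumor against day 14 values turned to 3.03 for Hey2, 1.04 for Gata2, -0.56 for S1pr1, 1.77 for Palmd, -0.51 for Tagln, -0.99 for Notch3 and -1.28 for Col4a2, and Flt1 to -3.97 and -2.99 against day 0 and day 7. Only 2 tumors, with far higher tissue levels than any ganglion, set these last values.

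In set 1 without normalization between arrays, Vegfa probe 620740 turned to -0.06 (medium against small) and -0.10 (very large against small), Egfl7 to -0.18 (large against small), -0.34 (very large against small) and -0.25 (weight trend), and Cldn5 to -0.45 (very large against small). The Vegfa slopes then passed at 1.36 for Cldn5, 0.68 for probe 620740 and 0.77 for Egfl7, and r passed at 0.528 (Vegfa and Cldn5) and 0.606 (Vegfa and Egfl7) and, with class means subtracted, at 0.685 (Vegfa and Egfl7) and 0.647 (Cldn5 and Egfl7). With centred arrays Egfl7 turned to -0.08, -0.06 and -0.06 (large and very large against small, weight trend) and Cldn5 to -0.18 (very large against small), and with life span in the model these were -0.28, -0.15, -0.09 and -0.47. The weight trend of Cldn5 was 0.23 with weight in g and 1.42 above the small class, and that of Vegfa probe 621252 passed at 0.45 (adjusted p = 0.0456) over the probes of the authors' table. After removal of muscle and adipocyte levels r passed at 0.635 (Vegfa and Cldn5), 0.484 (Vegfa and Egfl7) and, with class means subtracted, 0.471 (Cldn5 and Egfl7). With the other Vegfa probe, an alternative chosen after seeing the data, r with class means subtracted was 0.236 for Cldn5 and -0.109 for Egfl7, and the slope of Egfl7 was -0.07.

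In set 2 with day 0 specimens 3 to 5 only, Cldn5 passed at 1.34 (day 7) and 1.33 (tumor) and Egfl7 at 1.16 (day 7) against day 0. With specimens 1 and 2 only, chosen after seeing the data, Egfl7 was 0.51 (day 14 against day 0, not past the threshold) and -0.79 (tumor against day 0, past it). From the series table Egfl7 at day 14 against day 0 missed the threshold at 1.01 (quantile normalized) and 1.30 (centred), as it did at 0.94 without the intensity trend. With the centred series table Cldn5 turned to 0.25 and Egfl7 weakened to -1.05 (tumor against day 7), and Vegfa probe 621252 turned to 0.04 (tumor against day 14). Without normalization Cldn5 passed at 1.99 and Egfl7 turned to 0.57 (tumor against day 0), Cldn5 turned to 0.69 and Egfl7 weakened to -0.60 (tumor against day 7), Vegfa probes 620740 and 621252 turned to 0.04 and 0.23 and Egfl7 weakened to -1.24 (tumor against day 14), and Mif turned to 0.24 (day 14 against day 0).

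The count of probes called by limma for the Vegfa slope, 87, became 0 with centred arrays or the other Vegfa probe, 2 without the intensity trend, 23 with the mean of both probes (chosen after seeing the data), 41 with life span, 258 with tissue levels, 283 over the authors' probes, 1380 without size class and 7130 without normalization. For day 14 against day 0, 1293, it became 807, 306 and 850 from the series table (quantile normalized, centred, not normalized), 3504 with specimens 3 to 5 and 4 with tissue levels. For tumors against day 7, 4091, and day 14, 5043, it became 2230 and 3321 (centred), 1837 and 2184 (not normalized) and 534 and 612 (tissue levels).

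With each sample left out in turn, the values ran as follows. Probes called ran from 0 to 228 (Vegfa slope; 0 without medium replicate 4, 228 without small replicate 6), 143 to 2020 (day 14 against day 0; without day 14 replicate 2 and day 0 replicate 1), 2381 to 2955 (tumor against day 7) and 3315 to 3506 (tumor against day 14). Cldn5 ran from -1.48 to -0.86 (medium against small), -0.34 to 0.29 (very large against small), -0.26 to 0.12 (weight trend), 0.70 to 1.22 (Vegfa slope), 1.53 to 2.12 (day 14 against day 0), 0.66 to 1.29 (tumor against day 0) and -0.30 to 0.28 (tumor against day 7). Vegfa probe 621252 ran from 0.48 to 0.82 (very large against small), 0.35 to 0.61 (weight trend), -0.23 to 0.42 (day 7 against day 0), -0.14 to 0.51 (day 14 against day 7), -0.24 to 0.61, -0.34 to 0.52 and -0.52 to 0.34 (tumor against day 0, 7 and 14). Probe 620740 ran from -0.10 to 0.18 (medium against small), -0.16 to 0.76 (day 14 against day 0), -0.10 to 0.37 (tumor against day 0) and -0.62 to 0.30 (tumor against day 14). Egfl7 ran from -0.15 to 0.22 (large against small), 0.76 to 1.02 (day 7 against day 0), 0.77 to 1.10 (day 14 against day 0), -0.10 to 0.23 (day 14 against day 7), -1.35 to -1.12 and -1.46 to -1.13 (tumor against day 7 and day 14).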

Other observations

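The 2 small tumors that were arrayed in both sets allow a comparison of unnormalized intensities of the same tumors. In small replicate 3 the ratio of set 2 over set 1 was 0.44 for Vegfa probe 621252, 1.60 for Vegfa probe 620740, 1.23 for Cldn5 and 2.57 for Egfl7, where the median over all probes gave 1.23. In small replicate 6 these ratios were 0.11, 0.98, 0.59 and 1.74, with 1.17 over all probes. The brighter Vegfa probe of set 1 thus read 9780 intensity units in small replicate 6 on the first array and 1038 on the second.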
